A study of Mus musculus with 30 samples.

Results

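The genes described here are 10 genes of the YAP and TEAD system: Ccn1, Ccn2, Ankrd1, Amotl2, Ajuba and Axl, which are target genes; Lats2, a target gene whose kinase restrains YAP; and Yap1, Wwtr1 and Tead1, which encode the regulators themselves. They were taken by symbol from the table of TPM values (transcript abundance per length, scaled to a fixed total in each library). Of the 10 symbols, 9 were matched among the 34724 symbols of the table, and Ankrd1 was not analysed here. All 9 passed the filter on low values (1 TPM or more in 3 or more libraries), as did 14093 genes in all. The list name covers targets only, whereas Yap1, Wwtr1 and Tead1 are the factors that act on them.

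The RNA came from mouse embryonic fibroblasts (MEFs) that lack Cry2, a circadian clock repressor. Every group, the controls included, also stably expressed c-MYC, a growth-promoting transcription factor, together with 1 of 5 constructs. These encoded the CRY2 mutants D325H, S510L and F428D or wild-type CRY2 (WT), and the control was an empty vector (EV). Each construct was grown after plating 500 cells per well (high density, harvested on day 11) or 150 cells per well (low density, harvested on day 14), in low oxygen. Each of the 10 groups had 3 biological replicates, each pooled from 2 wells, which gave 30 libraries. The time of growth differed with the plating density, so the effects of density and of days in culture cannot be told apart. Independent derivation of the lines is not stated in the labels. Constructs and cell lines therefore cannot be told apart, and p-values reflect the spread among these cultures alone. How confluent the wells were at harvest is not given in the sources used here.

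YAP (encoded by Yap1) and TAZ (encoded by Wwtr1) are transcriptional coactivators that enter the nucleus when the Hippo kinases are inactive. There they bind TEAD proteins, which attach them to DNA and switch on genes of growth, adhesion and the matrix. In cultured fibroblasts, crowding and soft substrates are known to keep YAP and TAZ in the cytoplasm, while spreading and stress fibres favour the nucleus. This control acts largely on the proteins, through phosphorylation by LATS1 and LATS2, so mRNA levels of Yap1 and Wwtr1 do not report where the proteins are.

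The windows below run from 250 bases before to 50 bases after an annotated transcription start (RefSeq, GRCm38.p6) and are shown because TEAD proteins recognise the letters GGAATG. They were searched for GGAATG on both strands, which on the printed strand reads GGAATG or CATTCC, and each match is in capitals. Windows were found for 7 of the 9 genes, namely Ccn1, Amotl2, Ajuba, Axl, Lats2, Yap1 and Wwtr1. All are printed 5′ to 3′ on the strand of the gene. Ccn1 lies at chr3:145649936-145650235 (minus strand), Amotl2 at chr9:102717554-102717853 (plus strand), Ajuba at chr14:54577612-54577911 (minus strand) and Wwtr1 at chr3:57575827-57576126 (minus strand).
Ccn1: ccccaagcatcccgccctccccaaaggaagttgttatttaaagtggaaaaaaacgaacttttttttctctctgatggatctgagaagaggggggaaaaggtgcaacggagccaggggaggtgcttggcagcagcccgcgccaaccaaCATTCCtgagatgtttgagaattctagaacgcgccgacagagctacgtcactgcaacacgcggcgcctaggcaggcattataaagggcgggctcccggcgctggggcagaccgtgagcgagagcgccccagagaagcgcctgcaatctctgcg
Amotl2: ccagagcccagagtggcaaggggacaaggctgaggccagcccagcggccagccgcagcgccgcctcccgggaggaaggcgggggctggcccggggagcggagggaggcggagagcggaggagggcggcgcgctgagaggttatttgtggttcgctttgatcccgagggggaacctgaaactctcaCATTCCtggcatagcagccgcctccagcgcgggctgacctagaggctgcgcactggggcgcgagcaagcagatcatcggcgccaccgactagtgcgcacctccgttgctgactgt
Ajuba: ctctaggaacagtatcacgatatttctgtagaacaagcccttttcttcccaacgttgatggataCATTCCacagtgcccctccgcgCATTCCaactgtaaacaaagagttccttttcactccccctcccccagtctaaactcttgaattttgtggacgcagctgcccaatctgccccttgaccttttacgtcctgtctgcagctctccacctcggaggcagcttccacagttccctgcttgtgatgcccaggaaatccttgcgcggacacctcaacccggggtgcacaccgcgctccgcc
Wwtr1: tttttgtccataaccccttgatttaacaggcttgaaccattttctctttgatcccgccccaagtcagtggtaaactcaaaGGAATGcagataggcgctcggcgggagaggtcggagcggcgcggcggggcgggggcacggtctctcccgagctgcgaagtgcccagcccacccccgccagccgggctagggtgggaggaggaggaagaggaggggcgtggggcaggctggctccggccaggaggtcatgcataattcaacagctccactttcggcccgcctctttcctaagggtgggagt

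The 7 genes have 9 windows, of which 8 held a match, among them at least 1 window of each gene. Of all 32851 promoter windows of the same length, 14.7% held one. Neither share is of independent windows, since some windows of a gene overlap. The first base of the match stood at -103 in Ccn1, -65 in Amotl2, -233 in Axl and -141 in Yap1, counted from the start of transcription. Ajuba had 2 matches, at -186 and -164. Wwtr1 had 1 site, which stood at -170 or -136 in 2 overlapping windows, and 1 of the 2 windows of Lats2 had a match at position 5 of the transcript. The letters TGANTCA, the site of the AP-1 factors that often work beside TEAD, were in none of the 7 genes' windows and in 7.81% of all windows. The motifs do not overlap each other. A match is a description of these letters, and no binding was measured.

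**Figure D1:**
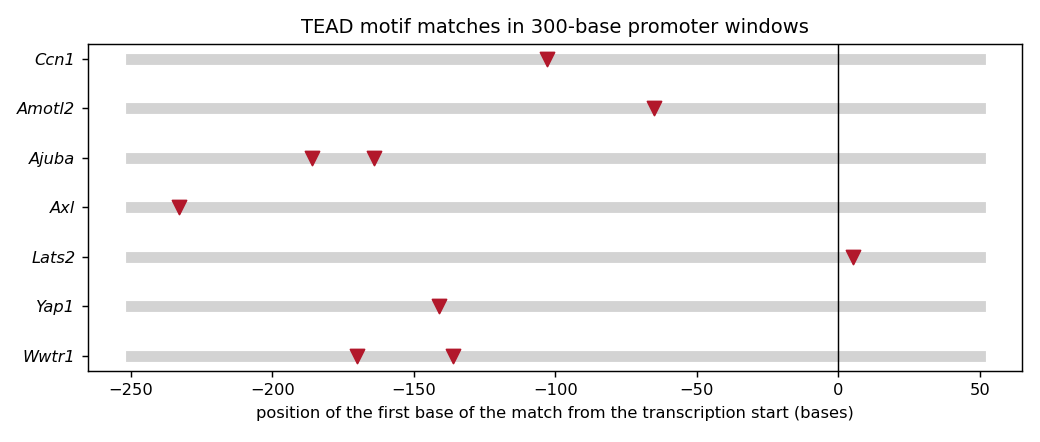
Matches to GGAATG (either strand) in the promoter windows of 7 genes. Grey bars are the 300-base windows, the horizontal axis is the distance from the transcription start in bases, and each triangle is the first base of a match; the 2 triangles of Wwtr1 are 1 site seen from 2 annotated starts, and for Lats2 the 1 window of 2 with a match is counted.

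The cells bore fibroblast transcripts. Across the 30 libraries the median was 6429 TPM for Vim and 947.5 TPM for Col1a1, while Thy1, another fibroblast marker, stood at a median of 1.98 TPM. The 5 endothelial markers summed to 1.03 TPM or less. The 5 macrophage markers summed to 1.46 to 6.96 TPM, nearly all of it Cd68, with Adgre1 at 0 in 30 of 30 libraries. The 6 epithelial markers summed to 29.2 to 566 TPM, led by Krt19 (median 298 TPM), while Epcam had a median of 0.11 TPM and Cldn4 was at 0 in 23 libraries. Epithelial, smooth muscle (4 of 5 in the table) and cartilage markers (4 of 4) moved with the groups, as given beside the results they touch. Cry2 itself was at 3.82 to 5.55 TPM in the EV libraries. In means of 3 libraries at high and low density, it was at 111 and 116 TPM in D325H, 27.6 and 20.7 TPM in S510L, 72.2 and 104 TPM in F428D, and 72.3 and 75.5 TPM in WT. The table does not tell introduced from endogenous transcripts. The depth per library is unknown because TPM carries none, and 15910 to 19269 symbols were above 0 in a library. In bulk RNA, fewer cells expressing a gene and less RNA per cell cannot be told apart.

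Averaged over the 5 constructs, most of the target genes were lower in high-density cells than in low-density cells. Of the 9 genes, 7 fell in this average and none rose, where 16.6% of all genes tested were called lower and 3.48% higher. Ccn2 differed most, Ccn1, Lats2 and Amotl2 came next, and the coactivator Yap1 and its DNA-binding partner Tead1 did not pass the test. The average difference was negative for all 9 genes under every alternative processing tried, although within S510L the mean of Ccn2 was higher at high density. Of all genes tested, 64.1% had a negative average difference in the fit reported here. The median difference was -0.29 in log2(TPM + 1) over the 9 genes and -0.06 over all genes tested. The share of called genes that were higher was 17.3%, and under quantile normalization and median-ratio scaling it was 48.8% and 42%. Summed cartilage markers were lower at high density as well, without overlap in EV, S510L, D325H and F428D. In EV they were at 208 to 392 TPM at high density and 1009 to 1959 TPM at low density. In S510L they were at 1470 to 2227 TPM at high density and 4387 to 4880 TPM at low density, and the D325H and F428D values are given below. In WT they were at 316 to 495 TPM at high density and 331 to 725 TPM at low density, and overlapped. Their part in the results of the 9 genes was not tested.

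Ccn2 encodes connective tissue growth factor, a secreted matrix-associated protein and the most used read-out of YAP activity. In D325H cells it was at 41.8, 34.0 and 30.8 TPM at high density, against 90.8, 85.1 and 117 TPM at low density. In F428D cells it was at 48.6, 60.3 and 40.5 TPM at high density, against 138, 92.4 and 198 TPM at low density. WT cells had 59.7, 35.8 and 49.4 TPM at high density and 82.5, 93.6 and 207 TPM at low density. In these constructs, and in EV, no high-density library reached the lowest low-density one. In D325H that was so for 16.3% of all genes tested, and for the other constructs this share was not computed.

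EV cells had 42.3, 22.9 and 32.2 TPM of Ccn2 at high density and 75.1, 65.8 and 95.1 TPM at low density. S510L cells stood apart, with 114, 106 and 99.3 TPM at high density against 73.1, 128 and 70.5 TPM at low density. There the densities overlapped, and all 3 high-density S510L libraries lay above every other high-density library. The mean over all libraries was 54.5 ± 28.8 TPM at high density and 107 ± 43.8 TPM at low density (SD, n = 15 each). The difference over the 5 constructs was -1.03 ± 0.14 in log2(TPM + 1) (SE; adjusted p = 5.96e-05, limma with Benjamini-Hochberg adjustment). Without each library in turn it stayed called in 30 of 30 fits.

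Ordered by mean level, Ccn2 ran F428D low (143 TPM), WT low (128 TPM), S510L high (106 TPM), D325H low (97.8 TPM), S510L low (90.4 TPM) and EV low (78.7 TPM). Below these came F428D high (49.8 TPM), WT high (48.3 TPM), D325H high (35.5 TPM) and EV high (32.5 TPM). Of the 9 pairs of neighbours in this order 8 overlapped, and only EV low and F428D high did not.

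Within single constructs the Ccn2 difference was -1.43 ± 0.31 in D325H (adjusted p = 0.0167) and -1.45 ± 0.31 in F428D (adjusted p = 0.0287), by limma. With only the groups compared in the fit, the adjusted p was 0.226 in D325H and 0.492 in F428D, and without the 2 libraries with the fewest genes above 0 it was 0.108 in D325H and 0.0779 in F428D, so neither call held there. With single libraries left out, the call held in 4 of 6 fits in D325H and 2 of 6 in F428D. The Ccn2 difference was -1.29 ± 0.31 in WT (adjusted p = 0.851) and -1.28 ± 0.31 in EV (adjusted p = 0.127), and limma called neither. In S510L it was 0.28 ± 0.31 (adjusted p = 0.674). Whether the density difference varied between constructs was asked with limma's joint F test over 4 degrees of freedom. It called none of the 9 genes (Ccn2 adjusted p = 0.443, 0.183 to 0.836 over the alternatives) and 0.071% of all genes, with 1082 genes at an unadjusted p under 0.05. The S510L pattern of Ccn2 was thus not shown to differ from the other constructs.

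Ccn1 encodes CYR61, a matricellular relative of Ccn2. In D325H cells it was at 206, 209 and 171 TPM at high density, against 386, 330.2 and 368 TPM at low density. These sets did not overlap, whereas in EV, WT, S510L and F428D they did. In S510L the range was 252 to 310.1 TPM at high density and 245 to 408 TPM at low density. In F428D it was 203 to 299 TPM at high density and 286 to 429.7 TPM at low density. The density difference was -0.89 ± 0.19 in D325H (adjusted p = 0.0169) and -0.45 ± 0.09 over the 5 constructs (adjusted p = 0.00114), by limma. The D325H call was lost with only the groups compared (adjusted p = 0.226) and without the 2 libraries with the fewest genes (adjusted p = 0.116).

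Lats2 encodes the kinase that phosphorylates YAP and TAZ, and is itself induced by them. It was the least abundant of the 9 at 12.7 ± 1.41 TPM at high density and 17.8 ± 4.29 TPM at low density (SD, n = 15 each). D325H cells had 11.8, 13.4 and 11.4 TPM at high density and 22.6, 18.1 and 18.2 TPM at low density, without overlap. The difference over constructs was -0.43 ± 0.09 (adjusted p = 0.00162, limma).

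Amotl2 encodes a motin that holds YAP at junctions, Ajuba a LIM protein that binds LATS kinases, and Axl a receptor tyrosine kinase. The mean of Amotl2 was 101 ± 26.7 TPM at high density and 145 ± 63.8 TPM at low density (SD, n = 15 each). Its difference over constructs was -0.43 ± 0.10 (adjusted p = 0.00539, limma). Axl averaged 163 ± 15.9 TPM at high density and 203 ± 42.5 TPM at low density, a difference of -0.29 ± 0.08 (adjusted p = 0.0111, limma). Ajuba averaged 49.5 ± 5.64 TPM at high density and 62.1 ± 14.3 TPM at low density, a difference of -0.29 ± 0.10 (adjusted p = 0.0424, limma). The Ajuba call held in 9 of 30 fits with a library left out.

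Of the factors themselves, Wwtr1 fell by 0.24 ± 0.06 over constructs (adjusted p = 0.00694, limma). It averaged 36.1 ± 6.51 TPM at high density and 43.3 ± 10.5 TPM at low density, and was not called after quantile normalization (adjusted p = 0.074, limma). Yap1 averaged 98.1 ± 20.8 TPM at high density and 107 ± 20.4 TPM at low density, a difference of -0.12 ± 0.04 (adjusted p = 0.0551, limma). Tead1 averaged 30.8 ± 7.34 TPM at high density and 33.8 ± 5.35 TPM at low density, a difference of -0.15 ± 0.06 (adjusted p = 0.0684, limma).

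**Figure D2:**
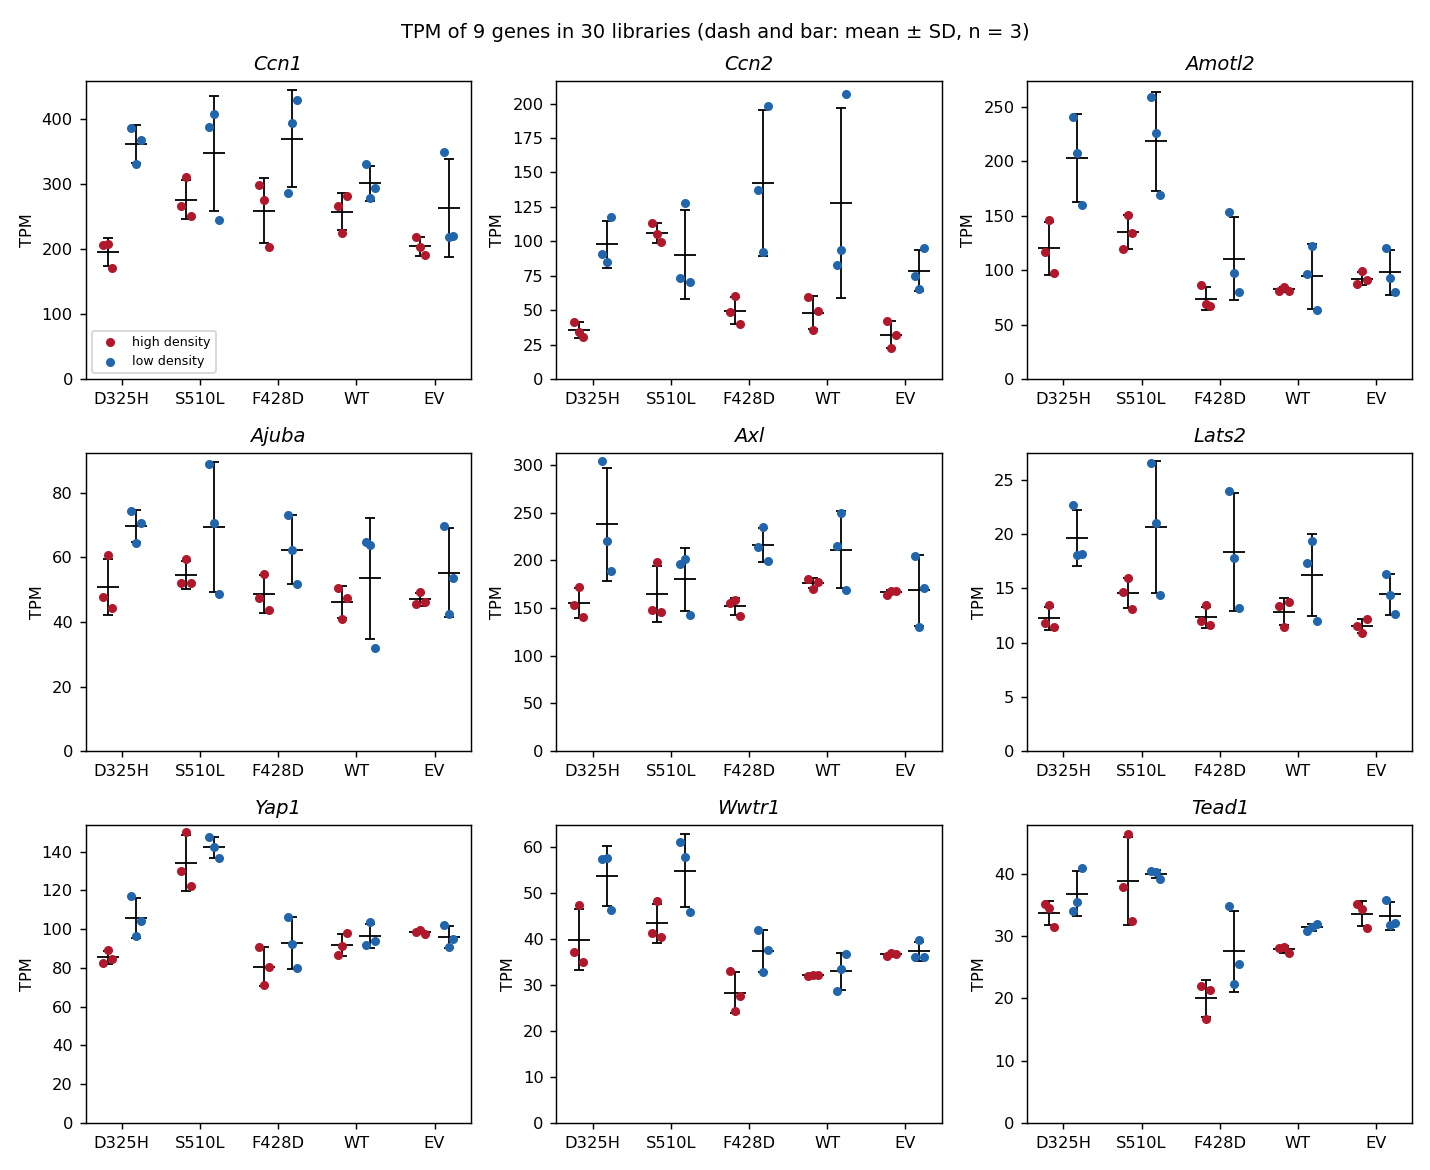
TPM of the 9 genes in the 30 libraries, by construct, with high density (red) left of low density (blue) and the mean ± SD of 3 libraries in black. The high-density points of Ccn2 lie below the low-density points in D325H, F428D, WT and EV, whereas in S510L they overlap, and Yap1 is highest in S510L at both densities.

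Among single constructs, D325H cells carried the most calls. There 2 of 9 genes fell with density (Ccn1 and Ccn2) and none rose, against 3.17% of all genes lower and 0.937% higher. In 7 of 9 genes the D325H libraries of the 2 densities did not overlap, with the high-density libraries lower, which was so for 16.3% of all genes tested. Tead1 and Wwtr1 were the others. The median difference of the 9 genes was -0.59, against -0.07 over all genes. Values that missed the threshold were -0.59 ± 0.17 for Axl (adjusted p = 0.0543), -0.64 ± 0.19 for Lats2 (adjusted p = 0.0598) and -0.75 ± 0.23 for Amotl2 (adjusted p = 0.0612), by limma. Ajuba (-0.46), Wwtr1 (-0.42), Yap1 (-0.30) and Tead1 (-0.12) were not called either. The count of 2 was 0 without D325H high replicate 1 or 3, 1 without D325H low replicate 1, 5 without D325H low replicate 3 and 6 without D325H high replicate 2. Of all called genes 22.8% were higher, and 48.4% and 37.4% after quantile normalization and median-ratio scaling.

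Summed smooth muscle markers were at 261 to 909 TPM in D325H cells at high density and 760 to 2307 TPM at low density, and summed cartilage markers at 206 to 385 TPM at high density and 737 to 1428 TPM at low density. None of these markers was at 0 in any library, Tagln leading the muscle list and Col2a1 the cartilage list. Their part in the result was not tested.

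In F428D cells 1 of 9 genes, Ccn2, fell and none rose, against 0.795% of genes lower and 0.248% higher. All 9 differences were negative, and so were 66.7% of those of all genes tested. The median of the 9 was -0.50 against -0.11 over all genes. The 8 that were not called ran from -0.53 (Amotl2) to -0.20 (Yap1). That median over all genes was -0.00087 after quantile normalization. The Ccn2 call was lost under both scalings and without F428D low replicate 1 or any of the 3 high-density replicates. Without F428D low replicate 3 there were 3 calls. Of all called genes 23.8% were higher, and 62.7% and 59.7% after quantile normalization and median-ratio scaling. Summed cartilage markers were at 320 to 468 TPM at high density and 920 to 1404 TPM at low density, and their part was not tested.

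In S510L, WT and EV cells no gene of the 9 was called. The background was 0.781% lower and 0.255% higher in S510L, 0% lower and 0% higher in WT, and 0.0781% lower and 0% higher in EV. Genes at an unadjusted p under 0.05 numbered 2365, 673 and 979. The sign was negative in 8 of 9 genes in S510L, 9 of 9 in WT and 6 of 9 in EV. Of all genes tested, it was negative in 51.6% in S510L, 66.8% in WT and 61.1% in EV. The EV count lies near that share. Besides Ccn2, the differences ran from -0.67 (Amotl2) to -0.05 (Tead1) in S510L, from -0.29 (Lats2) to -0.03 (Wwtr1) in WT and from -0.33 (Ccn1) to 0.04 (Yap1) in EV. In S510L the share of called genes that were higher was 24.7%, and 44.1% and 35.3% after quantile normalization and median-ratio scaling. Amotl2 was at 120 to 151 TPM in S510L cells at high density, against 169 to 259 TPM at low density, without overlap (-0.67 ± 0.23, adjusted p = 0.14, limma). In WT the range of Amotl2 was 81.4 to 85.1 TPM at high density and 63.7 to 123 TPM at low density, and the densities overlapped.

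**Figure D3:**
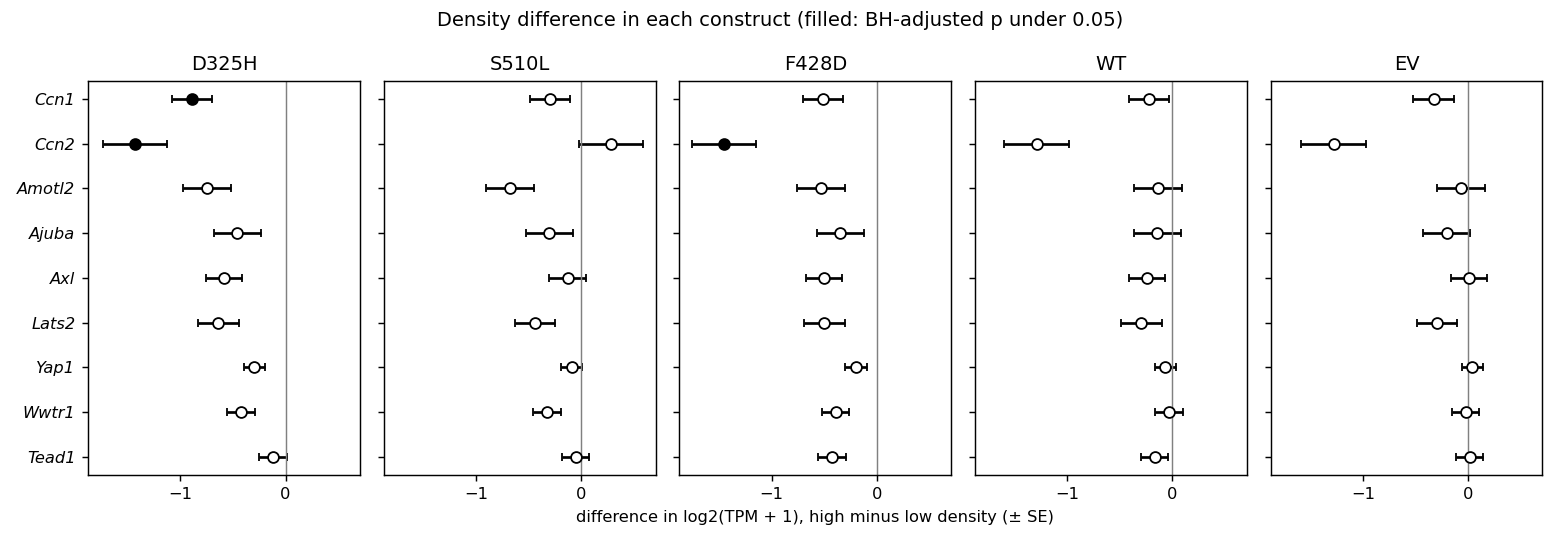
Difference in log2(TPM + 1), high minus low density, for each gene and construct, with its SE as the bar; filled points are called at an adjusted p under 0.05. Filled points are Ccn1 and Ccn2 in D325H and Ccn2 in F428D, and 41 of the 45 differences are below 0. Of all genes tested, 51.6% (S510L) to 66.8% (WT) were below 0 within a construct.

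Comparing constructs over both densities gave another grouping of the 9 genes. Amotl2 and the regulators Wwtr1, Tead1 and, in S510L alone of the tested pairs, Yap1 were called higher than in WT, whereas Ccn1, Ccn2, Ajuba, Axl and Lats2 were not called. The D325H, S510L and F428D comparisons share the WT libraries, so their errors are linked.

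In D325H cells 3 of 9 genes rose against WT and none fell, where 19.1% of all genes were called higher and 18.2% lower. Amotl2 was at 117, 146 and 97.7 TPM at high density and 241, 208 and 160 TPM at low density in D325H cells. In WT cells it was at 81.5, 85.1 and 81.4 TPM at high density and 96.9, 123 and 63.7 TPM at low density. At each density the D325H libraries lay above the WT ones, and the share of all genes for which that held was not computed. The difference was 0.82 ± 0.16 (adjusted p = 0.000423, limma).

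Wwtr1 was at 37.2, 47.4 and 35.1 TPM at high density and 57.4, 57.5 and 46.2 TPM at low density in D325H cells, against 32.0, 32.2 and 32.3 TPM at high density and 28.7, 33.6 and 36.8 TPM at low density in WT cells. D325H exceeded WT at each density, with a difference of 0.49 ± 0.09 (adjusted p = 0.000325, limma). The share of all genes that did so was likewise not computed. Tead1, at 33.7 ± 1.97 TPM in D325H and 27.9 ± 0.57 TPM in WT at high density (SD, n = 3 each; limma adjusted p = 0.0431 over both densities), differed by 0.24 ± 0.09. That call held in 2 of 12 fits with a library left out. Yap1 differed by 0.01 ± 0.07 (adjusted p = 0.911, limma), and the other genes that were not called by -0.34 (Ccn2) to 0.29 (Ajuba).

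In S510L cells 4 of 9 genes rose against WT and none fell, where 20.6% of all genes were called higher and 8.82% lower. The share higher among called genes was 70% and became 51.3% and 54.6% after quantile normalization and median-ratio scaling. Yap1 was at 130, 149.9 and 122 TPM at high density and 147.5, 142 and 137 TPM at low density in S510L cells. In WT cells it was at 86.8, 91.2 and 97.9 TPM at high density and 91.7, 104 and 94.1 TPM at low density. The 6 S510L libraries all exceeded the 6 WT libraries, by 0.55 ± 0.07 (adjusted p = 4.59e-06, limma).

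Amotl2 was at 120, 151 and 135 TPM at high density and 259, 226 and 169 TPM at low density in S510L cells, above the WT values given above at each density. The difference was 0.96 ± 0.16 (adjusted p = 9.29e-05, limma). Wwtr1 was at 41.3, 48.4 and 40.5 TPM at high density and 61.0, 57.9 and 45.8 TPM at low density in S510L cells, with a difference of 0.56 ± 0.09 (adjusted p = 7.55e-05, limma). Tead1 averaged 39.4 ± 4.51 TPM in S510L and 29.7 ± 2.02 TPM in WT (SD, n = 6 each), with a difference of 0.39 ± 0.09 (adjusted p = 0.00229, limma). Wwtr1 and Tead1 likewise showed no overlap between the 6 S510L and 6 WT libraries. The share of all genes without overlap between these libraries was not computed. Ccn2 was higher in S510L than WT at high density, where the libraries did not overlap (106 ± 7.13 against 48.3 ± 12.0 TPM, SD, n = 3 each), and lower at low density (90.4 ± 32.3 against 128 ± 68.9 TPM), where they did. Over both densities it was 0.36 ± 0.22 (adjusted p = 0.222, limma), and was called without WT low replicate 3 (adjusted p = 0.0332). Ccn1, Ajuba, Axl and Lats2 differed by -0.17 (Axl) to 0.32 (Ajuba).

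Trp53 and Cdkn1a moved with these constructs as well. Trp53 was at 59.2, 32.6 and 126 TPM at high density and 15.4, 17.7 and 131 TPM at low density in D325H cells and at 24.7 to 111 TPM in S510L cells, against 240.4 to 330.1 TPM in WT cells. Cdkn1a was at 102, 46.3 and 196 TPM at high density and 27.3, 21.0 and 284 TPM at low density in D325H cells and 56.1 to 198 TPM in S510L cells, against 482 to 597 TPM in WT cells. D325H low replicate 3 thus stood above the other low-density D325H libraries in both genes. Without it the Amotl2 and Wwtr1 calls against WT held and Tead1 was not called (adjusted p = 0.0971, limma). Cry2 was lower in S510L and higher in D325H than in WT, by the means given above. The S510L libraries did not overlap with WT, whereas the D325H libraries did at both densities. At high density Cry2 was at 49.7, 161 and 122 TPM in D325H cells, against 90.1, 60.85 and 66.05 TPM in WT cells. Summed cartilage markers were at 1470 to 4880 TPM in S510L cells against 316 to 725 TPM in WT cells. Summed smooth muscle markers were at 261 to 2307 TPM in D325H cells and 289 to 879 TPM in S510L cells, against 166 to 333 TPM in WT cells. Summed epithelial markers were at 29.2 to 278 TPM in D325H cells and 161 to 248 TPM in S510L cells, against 337 to 566 TPM in WT cells, without overlap. The part of these differences in the 9 genes was not tested.

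F428D against WT gave no call among the 9 genes, against 0.0355% of genes higher and 0.0142% lower, with 1253 genes at an unadjusted p under 0.05. Tead1 was at 22.0, 16.6 and 21.4 TPM at high density in F428D cells, below the 28.1, 28.3 and 27.2 TPM of WT cells, and overlapped with them at low density. The value of 16.6 TPM came from F428D high replicate 2, the library with the fewest symbols above 0 (15910). That library was the lowest of 30 for Tead1, Yap1 and Wwtr1. The Tead1 difference over both densities was -0.34 ± 0.09 (adjusted p = 0.287, limma), and it was called without F428D low replicate 1 (adjusted p = 0.049). The other 8 genes differed by -0.13 (Yap1) to 0.17 (Ajuba). WT against EV likewise gave no call, against 0.0851% higher and 0.447% lower, with 1750 genes at an unadjusted p under 0.05. The share higher among called genes was 16%, and 28.4% and 28.1% after quantile normalization and median-ratio scaling. Ccn2 differed by 0.58 ± 0.22 between WT and EV (adjusted p = 0.246, limma), and the other 8 genes by -0.18 (Wwtr1) to 0.28 (Ccn1).

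**Figure D4:**
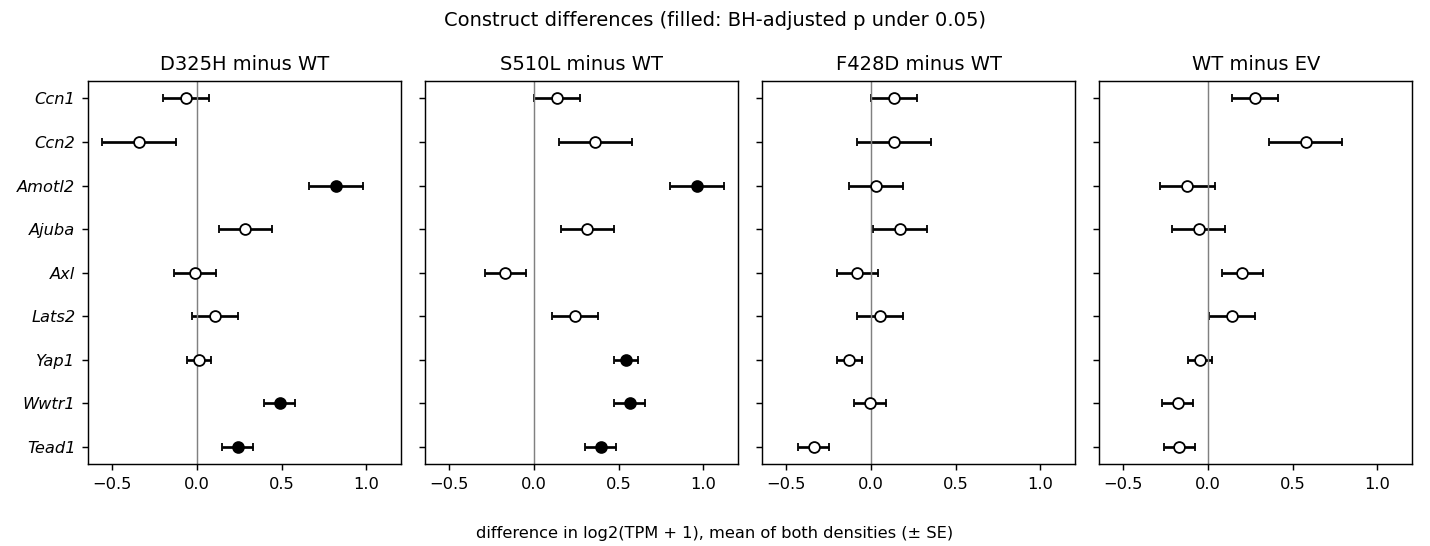
Difference in log2(TPM + 1) over both densities for each gene, with its SE as the bar; filled points are called at an adjusted p under 0.05. Amotl2, Wwtr1 and Tead1 are filled and above 0 for D325H minus WT, these and Yap1 for S510L minus WT, and no point is filled for F428D minus WT or WT minus EV.

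The genes did not vary as 1 block across the 30 libraries. In log2(TPM + 1), Pearson's r was 0.893 for Amotl2 with Wwtr1, 0.869 for Ajuba with Lats2 and 0.716 for Ccn1 with Ccn2. It was 0.23 for Ccn2 with Amotl2 and 0.0814 for Ccn1 with Tead1. These libraries share constructs and densities, so the values describe groups as much as genes. In deviations from the group means, Amotl2 with Lats2 had an r of 0.83 and Ajuba with Lats2 of 0.84, while Ccn2 with Amotl2 had -0.40.

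In 2 single libraries Ccn2 stood near the top of the 30 and Amotl2 near the bottom. In WT low replicate 3, Ccn2 was the highest of all 30 libraries at 207 TPM, while Amotl2 (63.7 TPM) and Ajuba (31.9 TPM) were the lowest of all 30. In F428D low replicate 3, Ccn1 was the highest of 30 at 429.7 TPM and Ccn2 the 2nd highest at 198 TPM, while Amotl2 at 80.4 TPM ranked 27 of 30. These 2 libraries deviated alike over all genes tested (r = 0.483, the highest of 135 same-numbered pairs). Of all genes, 2830 were called by density over the 5 constructs, 3926 without the WT library and 4095 without the F428D one. Both libraries enter the correlations above, so they are not separate evidence of a split.

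**Figure D5:**
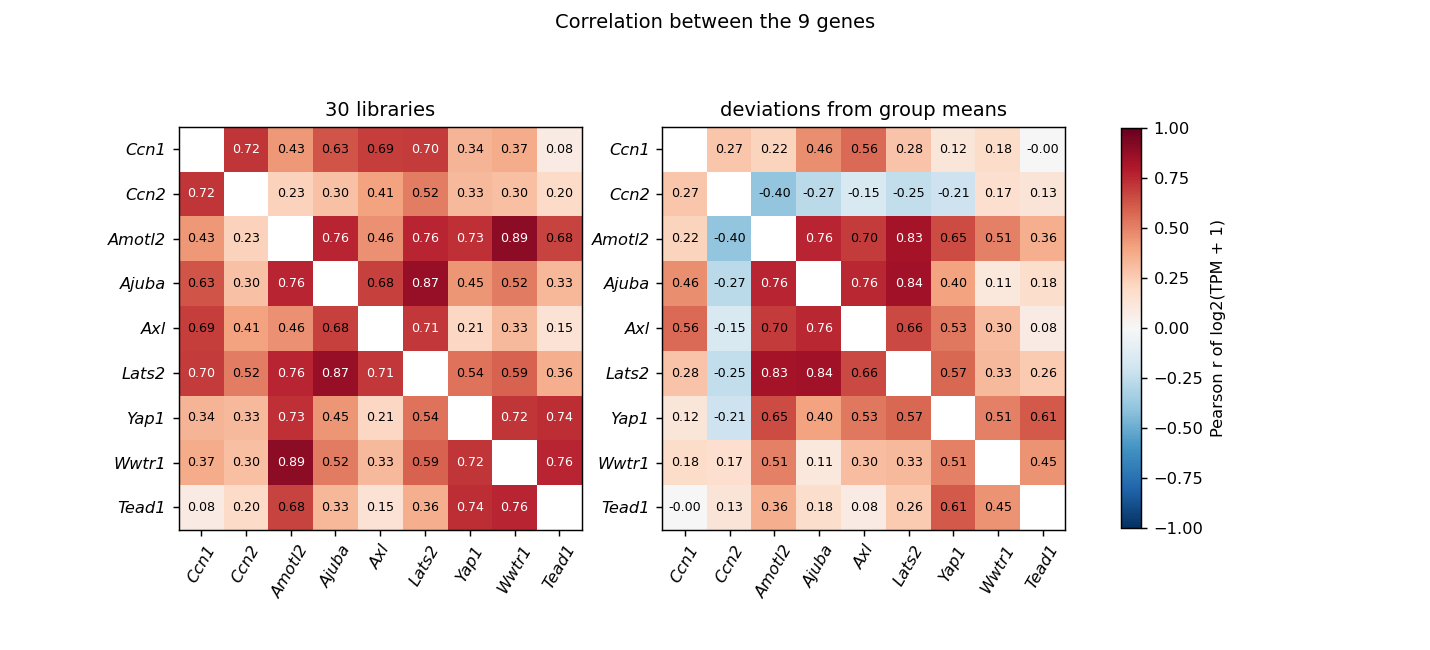
Pearson's r between the 9 genes in log2(TPM + 1), over the 30 libraries (left) and over deviations from the group means (right). On the right, Amotl2, Ajuba, Axl and Lats2 have values of 0.66 to 0.84 with each other, and Ccn2 has negative values with Amotl2, Ajuba, Axl, Lats2 and Yap1.

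Among 10068 genes, those whose levels were most like Ccn1 over the 30 libraries were Map6 (r = 0.889), Fgd3 (r = 0.88), Coq10b (r = 0.865) and Fstl3 (r = 0.842). Those most like Ccn2 were Tmcc2 (r = 0.813), Iqgap1 (r = 0.791), Pmepa1 (r = 0.775), Nupr1 (r = 0.772) and Skil (r = 0.767). The 9 genes were themselves left out of this search.

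Further YAP and TAZ targets were followed in a list of 20 genes, of which 19 were tested and Fosl1 was not analysed here. This list and those below were counted in the reported fit alone, not under the alternatives. Over all genes, the direction of the density calls moved with the scaling, as given above. At high against low density over the 5 constructs, 8 of 19 fell and none rose, with a median of -0.32, against 16.6% lower, 3.48% higher and a median of -0.06 over all genes. They included Thbs1, the matrix glycoprotein thrombospondin 1, at 421 ± 128 TPM against 773 ± 382 TPM (SD, n = 15 each; -0.78 ± 0.14). Rbms3, which encodes an RNA-binding protein, was at 6.15 ± 1.56 TPM against 10.2 ± 4.94 TPM (-0.56 ± 0.12). Within D325H, Thbs1 and Crim1, which encodes a BMP-binding membrane protein, were the 2 called, Thbs1 by -1.38 ± 0.32 and Crim1 by -0.87 ± 0.20 (both adjusted p = 0.0209, limma). None of the 19 rose there, and of all genes 3.17% were lower and 0.937% higher. Against WT, 8 rose and 3 fell in D325H, where 19.1% of all genes were higher and 18.2% lower, and 6 rose and 1 fell in S510L, where the shares were 20.6% and 8.82%. F3, which encodes tissue factor, differed by 1.35 ± 0.20 in D325H and 1.32 ± 0.20 in S510L. Tgfb2, which encodes a TGF-beta ligand, differed by 1.12 ± 0.31 in D325H and 0.85 ± 0.31 in S510L. Igfbp3, which encodes a binding protein of insulin-like growth factors, differed by 1.11 ± 0.23 in D325H, and the transcription factor gene Foxf2 by 0.81 ± 0.18 in S510L.

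Of 22 Hippo kinases and upstream regulators, 12 fell at high density over the 5 constructs and none rose, against 16.6% lower and 3.48% higher over all genes. They included the kinases Lats1, Stk3 and Stk4 and the large cadherins Fat4, Fat1 and Dchs1. Ptpn14 (-0.34 ± 0.08, adjusted p = 0.00476, limma) stands in this list and in that of further targets, and is counted in both. Fat4 was at 5.63 ± 5.36 TPM at high density and 13.1 ± 10.3 TPM at low density (SD, n = 15 each; -0.94 ± 0.20, adjusted p = 0.00224, limma). Fat1 differed by -0.66 ± 0.14 and Dchs1 by -0.54 ± 0.15. Within D325H 5 of 22 fell and none rose, against 3.17% of all genes lower and 0.937% higher. They were led by Fat4 (-1.61 ± 0.44), Dchs1 (-1.23 ± 0.34) and Frmd6 (-0.93 ± 0.27). Within F428D 2 of 22 fell and none rose, against 0.795% of all genes lower and 0.248% higher. These were Lats1 (-0.54 ± 0.12) and the motin gene Amotl1 (-0.49 ± 0.12). Against WT, 6 rose and 5 fell in D325H and 7 rose and 2 fell in S510L. Of all genes, 19.1% rose and 18.2% fell in D325H and 20.6% rose and 8.82% fell in S510L, and for the genes that fell the shares of the list lie near these. Fat4 and its ligand Dchs1 were higher in both, Fat4 by 1.86 ± 0.31 in D325H and 1.20 ± 0.31 in S510L, and Dchs1 by 1.55 ± 0.24 in D325H and 1.13 ± 0.24 in S510L. Fat1 was lower in D325H (-0.95 ± 0.22), and Wtip, of the Ajuba family, was higher in S510L (0.74 ± 0.16). Nf2, which encodes the Hippo activator merlin, was lower in D325H as well (-0.26, adjusted p = 0.00729, limma).

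Of 5 tested TEAD family members and cofactors, none was called over the 5 constructs, against 16.6% of all genes lower and 3.48% higher. Vgll3, a TEAD-binding cofactor, fell in D325H at high density (55.6 ± 7.89 TPM against 93.9 ± 18.5 TPM, SD, n = 3 each; adjusted p = 0.0208, limma). It was the 1 call of 5 there, against 3.17% of all genes lower and 0.937% higher. Against WT, Tead3 was higher (0.72 ± 0.16) and Tead4 lower (-0.58 ± 0.18) in D325H, and in S510L Vgll4 was higher (0.29 ± 0.10) and Vgll3 lower (-0.35 ± 0.12). D325H and S510L thus each had 1 of 5 higher and 1 of 5 lower. Of all genes, 19.1% were higher and 18.2% lower in D325H, and 20.6% higher and 8.82% lower in S510L. The shares of the list lie near these, except for lower genes in S510L, where 1 gene was called.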

How the data were processed

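Libraries were single-end reads from a BGISEQ-500, per the labels' protocols. The authors deposited 1 table of TPM values, made with kallisto (version not given in the sources used here) on an assembly named GRCh37.p13, per the submitters' processing notes. That is a human assembly, whereas the symbols are mouse ones, and how transcripts were summed to genes is not given in the sources used here. The columns, headed by numbers, were matched to samples through the sample numbers in the titles. TPM gives no depth, so precision rests on the replicates.

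Tests ran on log2(TPM + 1) for genes that reached 1 TPM in 3 or more libraries. This scale understates changes of low genes. All 30 libraries entered 1 model of group means in limma 3.58.1 (R 4.3.3), moderated by empirical Bayes along a trend of the variance. Calls used an adjusted p under 0.05 (Benjamini-Hochberg over all 14093 genes). The fit was also run on simulated data with independent noise for each gene and library. That cannot assess deviations that genes of a library share, so no call rests on it. The 9 members are given singly or by their range in every comparison. The share of all genes whose libraries did not overlap was computed for density in D325H alone. Of the pathway lists, the called genes with the 3 largest absolute differences per list and comparison are given, except a gene not reported here, besides others that were chosen after their values were seen. The members and lists were chosen with earlier results of these data known.

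The alternatives were pseudocounts of 0.1 and 5, no filter, a mean TPM of at least 5, median-ratio scaling (genes with a mean TPM of at least 10), quantile normalization, the replicate number as a block, only the groups compared in the fit, and each library left out in turn. Leaving out both libraries with the fewest genes above 0 (F428D high 2 and D325H high 3) was chosen after seeing the data. Promoter windows came from RefSeq (GRCm38.p6).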

Additional observations from a re-analysis of the deposited data

How the results depend on the processing

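Over the 5 constructs, Ccn1, Ccn2, Amotl2, Axl and Lats2 kept their density call in all 8 settings and all 30 fits without a library, Ajuba in 4 of 8 settings and 9 of 30 fits. Against WT, the calls of Amotl2 and Wwtr1 in D325H and of Amotl2, Yap1, Wwtr1 and Tead1 in S510L held in all 9 settings and 12 fits. Tead1 in D325H lost its call with no filter (adjusted p = 0.0677, limma).

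Within constructs the counts of called members depended on the processing. In D325H, 2 by density became 4 with the mean TPM filter, 5 with the replicate block (Axl, Lats2 and Amotl2 added, at adjusted p = 0.0333, 0.0289 and 0.021 by limma), 0 with only the groups compared and 0 without the 2 libraries with the fewest genes. Leaving out each replicate gave 0 to 6. In F428D, 1 became 0 with quantile normalization, median-ratio scaling, only the groups compared and without those 2 libraries, and leaving out each replicate gave 0 to 3. Leaving out each replicate gave 0 to 1 in S510L by density and 0 to 1 in F428D against WT. The cause was not tested, and the smaller fits also held fewer samples. Of 458 recomputed values of called members, 54 lost the call and 0 reversed. Of 1315 uncalled differences, 45 changed sign.

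Counts over all genes moved by over 1.5 times too. Over the settings and with each library left out, the density count of 579 in D325H ran from 0 to 1200, 146 in S510L from 15 to 690, 147 in F428D from 0 to 1651, 11 in EV from 0 to 59 and 0 in WT from 0 to 2. The count of 75 for WT against EV ran from 12 to 242, 7 for F428D against WT from 2 to 27, and 10 for the F test from 0 to 45.

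Same-numbered libraries of different groups had deviations correlated at -0.281 to 0.483 (median 0.00833), over 0.1 in 26 of 135 pairs. Within low density the correlation was over 0.1 in 11 of 30 pairs, and within high density in 2 of 30. Differently numbered libraries were not compared, so whether a replicate number marks a shared batch was not tested. The replicate block changed the density count in D325H alone among the counts of called members by more than 1.5 times. TPM gives no depth, so no limit on low values can be given.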

Other observations

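Within the 3 libraries of a group, the replicate in which each of the 9 genes was lowest was recorded. It differed between genes in some groups: in EV at high density it was replicate 3 for Ccn1, 2 for Ccn2 and 1 for Amotl2. Replicate 3 was the lowest in 26 of 45 combinations of gene and construct at high density and in 24 of 45 at low density, against 9 and 6 for replicate 1 and 10 and 15 for replicate 2. The genes are correlated, so these are not independent counts. The same count over all genes was not made, so a shift of whole libraries cannot be told from a trait of these genes. Whether the same replicate number in 2 groups marks a shared batch was not tested.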
